A study of Homo sapiens with 16 samples.

Results

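Differentiated HL-60 cells held in 10 µg/ml lipoteichoic acid (LTA) for 24 h were compared directly with the same cells in the same dose for 4 h. HL-60 is a human promyelocytic leukaemia line that differentiates in culture into neutrophil-like cells (dHL-60), and LTA is a cell wall glycolipid, here from Staphylococcus aureus. The comparison uses 4 of the 16 libraries of the series, 2 at 24 h and 2 at 4 h, chosen by their labels and without use of any measured value. The remaining dHL-60 groups, each of 2 libraries, were given 1 µg/ml LTA for 24 h, 1 µg/ml LTA for 4 h, or were untreated at 24 h or at 4 h. All 12 dHL-60 libraries carry the genotype label WT, differentiated, and come from 1 cell line. The sources used here do not name the agent that differentiated the cells, and 4 libraries of undifferentiated HL-60 were not compared. The 24 h and 4 h libraries differ in time in culture as well as in time with LTA, so the change in untreated dHL-60 from 4 to 24 h is given beside the change in LTA.

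LTA is sensed at the cell surface by TLR2, which pairs with TLR1 or TLR6 and is handed its ligand by CD14. The adaptor MYD88 and the IRAK kinases carry the signal to NF-κB and the MAP kinases. NF-κB quickly switches on cytokine and chemokine genes along with its own inhibitors, so that early transcripts are often transient. Later changes in myeloid cells include metabolic genes, interferon-stimulated genes and surface receptors.

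The 24 h libraries held 11890690 and 13964246 counts and the 4 h libraries 12297506 and 12403081, within a range of 9653374 to 16530277 over the 12 dHL-60 libraries. Levels are in CPM, the usual per-million scaling of counts by library total with TMM correction, and a change is a log2 fold change of 24 h over 4 h with its standard error (± SE, 2 libraries a group). A gene was called at an adjusted p under 0.05 in edgeR's quasi-likelihood test with Benjamini-Hochberg adjustment over 11866 genes. Within a pair the counts differed by more than sampling noise (chi-square divided by its degrees of freedom 16.3 at 24 h and 10.3 at 4 h), so each library was used as 1 sample. The labels do not state whether the libraries of a pair are independent cultures, and the p-values cover only their spread, which could be technical.

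The neutrophil-like label was checked on 34 mature neutrophil genes. Their summed level was 19418 and 18257 CPM at 24 h, against 14329 and 13135 CPM at 4 h. The calcium-binding protein S100A9 stood at 6312 and 5232 CPM at 24 h, against 2659 and 2466 CPM at 4 h, and lysozyme (LYZ) at 2263 and 2374 CPM at 24 h, against 5713 and 4907 CPM at 4 h. Defining markers of late neutrophils were nearly absent: over the 4 libraries the Fc receptor FCGR3B stood at 0 to 0.488 CPM, the secondary granule proteins LTF and LCN2 at 0 to 0.374 CPM and alkaline phosphatase (ALPL) at 0 to 0.294 CPM. Markers of macrophages, 19 genes, summed to 2347 and 1435 CPM at 24 h, against 4151 and 4733 CPM at 4 h, of which the chitinase-like protein CHI3L1 made up 2136 and 1197 CPM at 24 h and 3904 and 4533 CPM at 4 h. MSR1 and TREM2 were at 0 in all 4 libraries and CD68 stood at no more than 0.881 CPM. In a bulk culture, fewer cells of a type and less RNA per cell cannot be told apart.

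At 24 h, 24 of 26 cytokine genes, 16 of 20 chemokine genes and 22 of 24 NF-κB genes tested were lower than at 4 h, while 22 of 29 glycolysis and hypoxia genes and 18 of 29 sterol synthesis genes were higher. The integrin gene ITGAM, the protease gene MMP9 and the receptor genes LILRB1 and FCGR2B were higher as well. Of 11866 genes tested 46.8% were called, 2853 (24%) higher and 2695 (22.7%) lower at 24 h, and the groups did not overlap in 8821 (74.3%). Changes of at least 2-fold were called upward in 1116 genes (9.41%) and downward in 1332 (11.2%), and of at least 4-fold in 265 and 508. The median over all genes was 0.026. The count of higher genes rested on 4 h replicate 1 more than on any other library: without it 1853 genes were higher and 2077 to 2377 genes were lower across the 4 libraries left out in turn.

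Untreated cells also changed between the times in 40.9% of genes, with 2114 genes (17.8%) higher and 2739 (23.1%) lower at 24 h. Without untreated 24 h replicate 1 the first count was 1274. Of the 2853 genes higher in LTA, 888 were higher, 481 lower and 1484 not called in untreated cells. Of the 2695 genes lower in LTA, 1112 were lower, 163 higher and 1420 not called in untreated cells. The difference between the changes was itself tested, and 4001 genes (33.7%) passed, 2339 (19.7%) with the higher change in LTA and 1662 (14%) with the lower. Without 4 h replicate 1 of the LTA cells, 2660 genes passed. In 1 µg/ml LTA the same 2 times differed in 48.7% of genes, 3021 upward (25.5%) and 2761 downward (23.3%). The plot of change in LTA against change in untreated cells shows the stimulated genes described next.

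**Figure D1:**
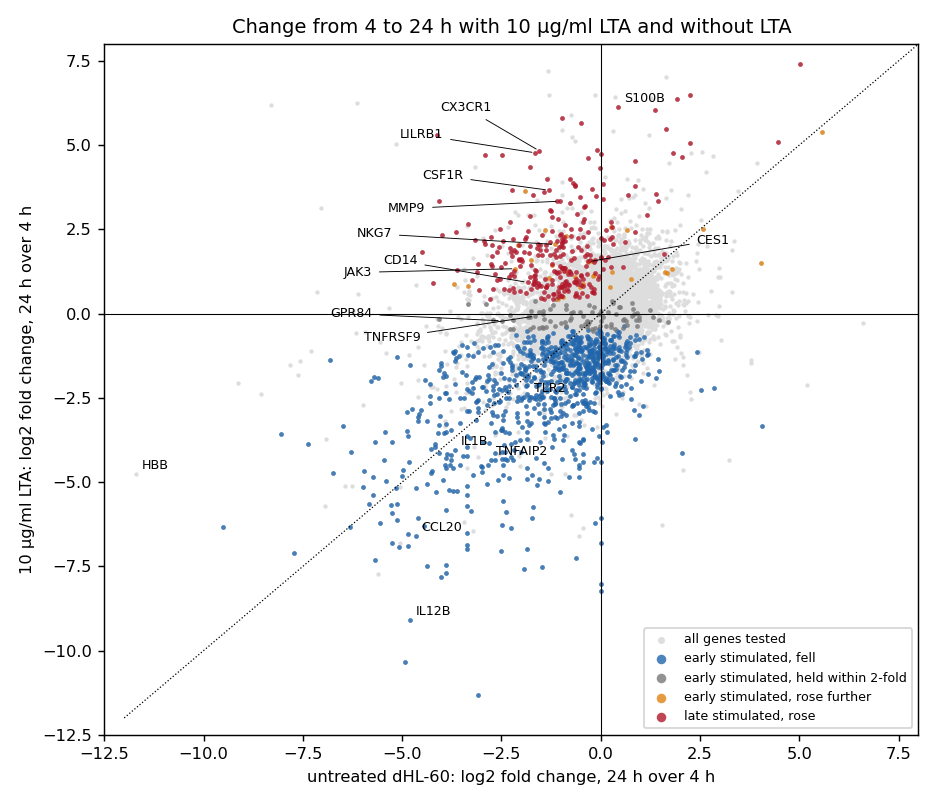
Each point is 1 of 11866 genes, with its log2 fold change of 24 h over 4 h in 10 µg/ml LTA (vertical) and in untreated dHL-60 (horizontal), and the dotted line marks equal change. Early stimulated genes that fell (blue, 871 genes) lie below 0 on the vertical axis, and late stimulated genes that rose (red, 275 genes) lie above it, mostly at negative changes in untreated cells. Values past about 6 either way include genes with few or 0 counts in 1 group, whose fitted change is not a bound.

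To follow stimulated genes without choosing them in the libraries compared, early stimulated genes were taken from the 1 µg/ml libraries. They were those called higher in 1 µg/ml LTA than in untreated cells at 4 h with a log2 fold change of at least 1, 1067 genes (8.99% of those tested). In 10 µg/ml LTA at 4 h, 1033 of the 1067 were called above untreated cells, a call made for 20% of all genes. From 4 to 24 h in 10 µg/ml LTA, 871 of the 1067 (81.6%) fell, 33 rose further, 85 held within 2-fold, meaning not called with a 95% interval inside -1 to 1, and 78 were undecided. The median change of the 1067 was -1.57, against 0.026 over all genes. In untreated cells 540 of them fell and 64 rose, with a median of -0.90 once folds against 0 counts were set to their bounds, as in every median below unless said to be as fitted. The untreated 4 h libraries took part in choosing these genes, so the untreated values are not independent of the choice.

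Many early genes that decayed were still above the untreated level at 24 h. Among the 871 that fell, the median change was -1.87 and 754 fell at least 2-fold. At 24 h, 486 of the 871 were still above untreated cells of the same age and 32 were below, in a comparison that calls 42.6% of all genes, 23.6% higher and 19% lower, and that shares the 24 h libraries. The fall was larger than in untreated cells for 378 genes and smaller for 61, beside 14% and 19.7% of all genes. These genes were kept for a called fall in LTA, which enters that difference, and the untreated 4 h libraries took part in the choice. The split was therefore partly set by the choice. Among the 85 that held, 68 were above untreated cells at 24 h and 0 below. In 1 µg/ml LTA, however, 47 of the 85 were lower at 24 h than at 4 h and 0 higher. Of all genes 23.3% were lower and 25.5% higher there, and the 1 µg/ml 4 h libraries took part in the choice of genes. Among the 33 that rose further, 31 were above and 1 below. In 1 µg/ml LTA 15 of these 33 were higher at 24 h than at 4 h and 2 were lower. At a stimulation threshold of log2 2 the numbers were 409 that fell, 9 that rose further and 15 that held.

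**Figure D2:**
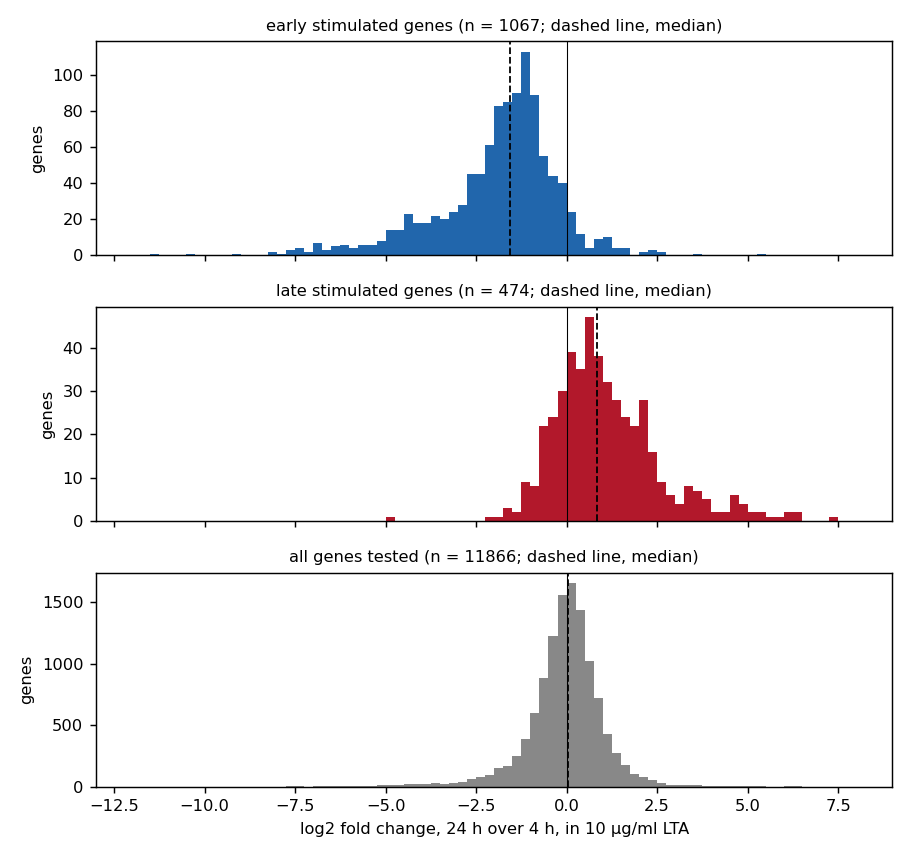
Histograms of the log2 fold change of 24 h over 4 h in 10 µg/ml LTA, in bins of 0.25, for early stimulated genes (top), late stimulated genes (middle) and all genes tested (bottom). The medians, drawn as dashed lines, are -1.57, 0.84 and 0.026.

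Receptor genes of the pathway changed in both directions. TLR2 (chromosome 4, 153684280 to 153710637, RefSeq, GRCh38) stood at 223 and 232 CPM at 24 h, against 1330.5 and 1227 CPM at 4 h. Both 24 h libraries were far below both 4 h libraries, a fall of 2.49 ± 0.16 (adjusted p = 1.09e-07). At 63.8 and 48.4 CPM, untreated cells at 24 h were lower still. They came from 194 and 201 CPM at 4 h, a fall of 1.81 ± 0.16. The fall of TLR2 in LTA was the larger one by 0.68 ± 0.22 (adjusted p of the difference 0.0316). The coreceptor CD14 had 1375 and 1232 CPM at 24 h, against 641 and 732 CPM at 4 h, a rise of 0.93 ± 0.15 (adjusted p = 0.000255), while untreated cells had 145 and 136 CPM at 24 h and 576 and 434 CPM at 4 h. TLR6 rose by 0.83 ± 0.20 (adjusted p = 0.00419), and its groups did not overlap. TLR1 rose by 0.53 ± 0.19 (adjusted p = 0.0367), a call lost with DESeq2 and without 24 h replicate 2 (0.25, adjusted p = 0.372) or either 4 h replicate (replicate 1, 0.56, adjusted p = 0.106, and replicate 2, 0.45, adjusted p = 0.179). The adaptor MYD88 fell by 0.91 ± 0.14 (adjusted p = 0.000194), with 292 and 276 CPM at 24 h, against 575 and 492 CPM at 4 h. It also fell in untreated cells, by 0.93 ± 0.15 (adjusted p = 0.000233). The difference between these falls, 0.026 ± 0.20, was not called (adjusted p = 0.937).

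Of 24 tested genes of Toll-like receptor recognition and signalling, 7 were higher and 12 lower at 24 h, with a median of -0.51. Of all genes 24% were higher and 22.7% lower. In untreated cells 0 were higher and 12 lower, with a median of -0.45. The kinase IRAK2 fell by 3.53 ± 0.24 and the ubiquitin ligase PELI1 fell by 1.75 ± 0.20 (adjusted p of at most 1.06e-05). LY96, the lipid-binding partner of TLR4, stood at 3.90 and 3.83 CPM at 24 h, against 0.196 and 0.374 CPM at 4 h, low in both groups but not overlapping. SIGIRR, an inhibitory member of the receptor family, had 34.3 and 41.7 CPM at 24 h, against 14.1 and 12.4 CPM at 4 h, a rise of 1.52 ± 0.22, and remained under the 84.6 and 105 CPM of untreated cells at 24 h. The kinase adaptor TAB1 rose by 1.08 ± 0.18 (adjusted p of these 3 at most 0.000245).

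Cytokine genes fell almost without exception. Of 26 tested cytokines and growth factors 24 were lower and 0 higher at 24 h, with a median of -3.42 when folds against 0 counts are set to their bounds and -3.95 as fitted. In untreated cells 16 were lower and 0 higher. The difference from untreated cells was called downward in 6 and upward in 2, beside 14% and 19.7% of all genes. IL12B, the shared subunit of interleukin-12 and interleukin-23, stood at 0.254 and 0.418 CPM at 24 h, against 204 and 183 CPM at 4 h, a fall of 9.09 ± 0.29. The gene lies on chromosome 5, 159314780 to 159330487 (RefSeq, GRCh38). The neutrophil growth factor CSF3 had 0.508 and 0.558 CPM at 24 h, against 40.8 and 58.2 CPM at 4 h, a fall of 6.51 ± 0.33. The pyrogenic cytokine IL1B had 528 and 425 CPM at 24 h, against 7776 and 8109 CPM at 4 h, a fall of 4.06 ± 0.33, and at 24 h still exceeded the 16.5 and 11.8 CPM of untreated cells. In each of these genes the 2 libraries at 24 h lay below the 2 at 4 h.

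IL6 had 0.423 and 0.0697 CPM at 24 h, against 13.8 and 23.4 CPM at 4 h and fell by 6.27 ± 0.52. IL36G, an interleukin-1 family cytokine, fell by 7.69 ± 0.42, and INHBA, the activin A subunit, fell by 6.23 ± 0.46. The growth factor CSF2 had 0 counts in both 24 h libraries and 2.84 and 3.08 CPM at 4 h, at least 25.8-fold lower when the 24 h pair is set to 3 counts. LIF was at least 7.50-fold lower by the same bound. The interleukin-2 receptor chain IL2RA had 0.678 and 0.906 CPM at 24 h, against 66.1 and 60.8 CPM at 4 h, a fall of 6.29 ± 0.22. The adjusted p of the 7 cytokine and receptor genes with a fold was at most 2.43e-06.

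Chemokine genes fell with the cytokines. Of 20 tested CC and CXC chemokines 16 were lower and 0 higher, with a median of -2.94. Untreated cells likewise had 16 lower and 0 higher, with a median of -3.59. The difference was called upward in 5 and downward in 0, beside 19.7% and 14% of all genes, so for no chemokine was the fall called larger in LTA. Some chemokines were near 0 in untreated cells at 24 h, which leaves the difference imprecise, as for CCL20 (-1.96 ± 1.07, adjusted p = 0.175). An uncalled difference therefore does not show equal falls. The dendritic and T cell attractant CCL20 stood at 7.96 and 4.04 CPM at 24 h, against 505 and 649.7 CPM at 4 h, a fall of 6.61 ± 0.31 (adjusted p = 1.02e-08). The neutrophil attractant CXCL2 had 17.3 and 12.4 CPM at 24 h, against 689 and 833 CPM at 4 h, a fall of 5.68 ± 0.28 (adjusted p = 1.04e-08). CCL4L2 had 41.4 and 36.3 CPM at 24 h, against 1967 and 1906 CPM at 4 h and fell by 5.64 ± 0.41 (adjusted p = 2.54e-07), a value that is uncertain because of its near-identical copy CCL4. For these 3 genes no overlap between groups was seen, and at 24 h all 3 were above untreated cells, which had 0.106 and 0.294 CPM of CCL20 and 0.586 and 0.441 CPM of CXCL2.

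Promoters of CCL20 and IL6 are shown because both genes fell and both hold a kB motif (GGG, any 2 bases, then TTTCC), a form of the sequence that NF-κB binds. The sequences run from 250 bases before to 50 after the gene's start and come from RefSeq (GRCh38.p14), CCL20 from chr2:227813592-227813891 and IL6 from chr7:22726950-22727249, both on the plus strand. Capitals mark the motif, which was searched on both strands.
CCL20: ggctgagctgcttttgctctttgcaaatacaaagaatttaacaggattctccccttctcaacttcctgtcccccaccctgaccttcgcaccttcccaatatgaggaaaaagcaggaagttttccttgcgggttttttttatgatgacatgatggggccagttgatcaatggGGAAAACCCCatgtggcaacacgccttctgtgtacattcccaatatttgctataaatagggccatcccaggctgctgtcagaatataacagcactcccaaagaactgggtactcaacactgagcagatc
IL6: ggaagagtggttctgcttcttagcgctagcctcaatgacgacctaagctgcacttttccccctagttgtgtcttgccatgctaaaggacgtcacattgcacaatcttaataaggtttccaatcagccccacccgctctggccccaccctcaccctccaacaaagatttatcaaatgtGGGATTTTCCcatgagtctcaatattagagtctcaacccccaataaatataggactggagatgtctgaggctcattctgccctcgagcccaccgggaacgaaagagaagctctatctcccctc
The match begins 79 bases before the start in CCL20, on the reverse strand, and 73 bases before the start in IL6, and it overlaps no other motif searched. The motif was present in 37 of 668 promoters (5.54%) of early genes that fell, in 1 of 65 (1.54%) of those that held, in 2 of 26 (7.69%) of those that rose further and in 3 of 205 (1.46%) of late genes that rose. It was present in 5 of 15 chemokine promoters (33.3%), in 217 of 9465 (2.29%) of all genes tested and in 523 of 27305 (1.92%) of all promoters in the table. A match is a description of the letters and was not tested as a binding site.

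NF-κB subunits, inhibitors and feedback genes were lower in 22 of 24 cases and higher in 0, with a median of -1.97. In untreated cells 19 were lower and 0 higher, with a median of -1.64. The difference was called downward in 6 and upward in 2, beside 14% and 19.7% of all genes. TNFAIP2, an NF-κB target, stood at 599.8 and 407 CPM at 24 h, against 10642 and 9795 CPM at 4 h, a fall of 4.34 ± 0.27. The kinase MAP3K8, which links NF-κB signalling to ERK, had 29.9 and 32.6 CPM at 24 h, against 693 and 533 CPM at 4 h, a fall of 4.29 ± 0.24. The receptor adaptor TRAF1 had 116 and 91.5 CPM at 24 h, against 1418 and 1248 CPM at 4 h, a fall of 3.68 ± 0.20 (adjusted p of the 3 at most 7.03e-08). All 3 remained above untreated cells at 24 h, TRAF1 by 3.46 ± 0.21 and MAP3K8 by 0.83 ± 0.23 (adjusted p = 5.03e-08 and 0.011). The fall of MAP3K8 was 2.66 ± 0.32 larger than in untreated cells (adjusted p = 5.25e-05), whereas TRAF1 differed by -0.38 ± 0.27 (adjusted p = 0.303).

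Immediate early genes, which respond to signalling without new protein synthesis, were lower in 28 of 36 cases and higher in 1, with a median of -1.79. In untreated cells 31 were lower and 0 higher, with a median of -1.74. The difference was called upward in 8 and downward in 7 of the 36, beside 19.7% and 14% of all genes. The transcription factor EGR2 stood at 10.4 and 12.1 CPM at 24 h, against 403 and 248 CPM at 4 h, and the nuclear receptor NR4A3 at 4.15 and 2.02 CPM at 24 h, against 84.03 and 57.6 CPM at 4 h. The phosphatase DUSP1 had 2.20 and 2.23 CPM at 24 h, against 59.5 and 30.9 CPM at 4 h. Falls were 4.85 ± 0.51, 4.55 ± 0.38 and 4.34 ± 0.74 in that order (adjusted p of at most 0.000326) and in EGR2 and DUSP1 the first 4 h library was well above the second, though both exceeded the 24 h libraries. The exception, the transcription factor KLF4, rose by 1.79 ± 0.27 (adjusted p = 0.000115), with 26.1 and 18.5 CPM at 24 h, against 7.05 and 5.79 CPM at 4 h, while untreated cells had 2.24 and 3.31 CPM at 24 h and 9.91 and 9.16 CPM at 4 h.

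The largest falls among genes with at least 10 CPM at 4 h also reached genes outside inflammation. The cilium genes DNAAF1 and CFAP46 and the sialidase NEU4 were among them. DNAAF1 and NEU4 had 0 counts in both 24 h libraries, against 32.4 and 18.8 CPM of DNAAF1 (at least 222-fold lower at 24 h) and 9.50 and 16.3 CPM of NEU4 (at least 113-fold lower) at 4 h. CFAP46 had 0.254 and 0.209 CPM at 24 h, against 51.02 and 56.98 CPM at 4 h, and the fatty acid elongase ELOVL7 had 0.254 and 0.349 CPM at 24 h, against 60.7 and 58.9 CPM at 4 h. MIR155HG, the host transcript of an inflammatory microRNA, stood at 0.847 and 1.25 CPM at 24 h, against 139 and 191 CPM at 4 h, a fall of 7.26 ± 0.40, and at 24 h was not called different from untreated cells, which had 1.60 and 0.661 CPM (-0.15 ± 0.57, adjusted p = 0.85). The lectin-like scavenger receptor OLR1 had 1.36 and 2.16 CPM at 24 h, against 137 and 153 CPM at 4 h, and in untreated cells it stood at 0.0532 and 0 CPM at 24 h and 30.9 and 28.3 CPM at 4 h, with the fall in LTA called the smaller one (adjusted p = 0.0206). In untreated cells CFAP46 and ELOVL7 also fell, CFAP46 to 0.0532 and 0.0735 CPM at 24 h, against 0.919 and 1.34 CPM at 4 h, and ELOVL7 to 0.213 and 0.441 CPM at 24 h, against 1.84 and 0.672 CPM at 4 h. The MAP kinase phosphatase DUSP8 had 0.339 and 0 CPM at 24 h, against 21.8 and 17.2 CPM at 4 h. The adjusted p of CFAP46, ELOVL7, MIR155HG, OLR1 and DUSP8 was at most 3.57e-06.

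SERPINB9, an inhibitor of granzyme B, fell least of the 8 early genes chosen for their response in 1 µg/ml LTA. It had 11.5 and 7.95 CPM at 24 h, against 46.3 and 36.3 CPM at 4 h, a fall of 2.09 ± 0.28 (adjusted p = 6.2e-05). Untreated cells had 0 counts of it at 24 h and 0.102 and 0.252 CPM at 4 h, so it remained well above the untreated level.

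Early genes that persisted in 10 µg/ml LTA included receptors, transporters and a membrane protease. In 1 µg/ml LTA the change from 4 to 24 h was -1.53 ± 0.26 for GPR84 and -0.52 ± 0.21 for TNFRSF9. GPR84, a receptor for medium-chain fatty acids, stood at 148 and 114 CPM at 24 h, against 132 and 171 CPM at 4 h, and the groups overlapped. The costimulatory receptor TNFRSF9 had 109 and 95.6 CPM at 24 h, against 106 and 109.9 CPM at 4 h. The 95% interval of the log2 change was -0.75 to 0.32 for GPR84 and -0.53 to 0.38 for TNFRSF9. In untreated cells both fell, GPR84 to 3.41 and 2.64 CPM at 24 h against 23.6 and 11.3 CPM at 4 h, and TNFRSF9 to 5.70 and 3.01 CPM at 24 h against 14.2 and 13.9 CPM at 4 h. The change in LTA differed from that in untreated cells by 2.28 ± 0.41 and 1.58 ± 0.34 (adjusted p = 0.00104 and 0.00339).

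The membrane protease MMP14 had 73.3 and 58.1 CPM at 24 h, against 75.8 and 57.8 CPM at 4 h (interval -0.59 to 0.54), and the amino acid transporter SLC7A7 had 163 and 111 CPM at 24 h, against 141 and 129 CPM at 4 h (interval -0.46 to 0.49). The death ligand TNFSF10 stood at 51.1 and 51.1 CPM at 24 h, against 56.9 and 45.9 CPM at 4 h (interval -0.37 to 0.36). In all 3 the groups overlapped, and untreated cells at 24 h had 2.66 and 3.38 CPM of MMP14, 11.7 and 12.1 CPM of SLC7A7 and 7.77 and 6.98 CPM of TNFSF10. The metalloprotease ADAMDEC1 (interval -0.34 to 0.83), the peptidase GGT5 (interval -0.49 to 0.58) and the semaphorin receptor PLXNA1 (interval -0.31 to 0.94) completed the 8 genes named in this class. Each of the 8 exceeded untreated cells at 24 h, by 2.60 to 5.41 (adjusted p of at most 1.73e-05). The signs of the near-zero changes of 6 of them turned under some settings, as given with the other settings.

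A small set of early genes went on rising. JAK3, a kinase of cytokine receptors that carry the common gamma chain, stood at 61.5 and 57.02 CPM at 24 h, against 26.7 and 20.4 CPM at 4 h, a rise of 1.33 ± 0.20 (adjusted p = 0.000105). Untreated cells had 0.426 and 0.367 CPM of it at 24 h and 2.55 and 1.18 CPM at 4 h. The carboxylesterase CES1 had 99.01 and 73.7 CPM at 24 h, against 24.1 and 35.3 CPM at 4 h, a rise of 1.54 ± 0.22 (adjusted p = 6.99e-05), with all untreated libraries under 1 CPM. CEACAM3, a granulocyte receptor that takes up bacteria, had 76.1 and 56.5 CPM at 24 h, against 14 and 18.5 CPM at 4 h, a rise of 2.03 ± 0.24, and the granule membrane protein NKG7 had 292 and 211 CPM at 24 h, against 59.9 and 61.2 CPM at 4 h, a rise of 2.05 ± 0.18 (adjusted p = 1.51e-05 and 1.25e-06). In all 4 the 24 h libraries were above the 4 h libraries without overlap.

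MIR210HG, the host transcript of a hypoxia-responsive microRNA, had 56.8 and 61 CPM at 24 h, against 1.86 and 0.934 CPM at 4 h, a rise of 5.40 ± 0.33. It also rose in untreated cells, which had 10.4 and 7.86 CPM at 24 h and 0 and 0.336 CPM at 4 h. PARM1 rose by 2.51 ± 0.21 in LTA and by 2.56 ± 0.26 in untreated cells, and CPAMD8, of the complement and macroglobulin family, rose by 2.30 ± 0.37 in LTA. The adjusted p of these 3 in LTA was at most 0.000232. In 1 µg/ml LTA the peptide transporter SLC15A3 and the keratin KRT7 fell from 4 to 24 h, by 0.71 ± 0.20 and 0.91 ± 0.34 (adjusted p = 0.0095 and 0.0405). In 10 µg/ml LTA they rose, SLC15A3 by 0.80 ± 0.20 and KRT7 by 0.87 ± 0.31, as did the matrix protein THBS1 by 1.06 ± 0.39. These rises had adjusted p = 0.00448, 0.0342 and 0.0398 in that order. SLC15A3 lost its call without replicate 1 at 24 h (0.49, adjusted p = 0.0931) or at 4 h (0.57, adjusted p = 0.0814). KRT7 lost its call with DESeq2, without 24 h replicate 1 (0.58, adjusted p = 0.248) and without 4 h replicate 1 (0.72, adjusted p = 0.193) or 2 (0.99, adjusted p = 0.0812). THBS1 lost its call with DESeq2 and without any of the 4 libraries (24 h replicate 1, 0.90, adjusted p = 0.143, 24 h replicate 2, 1.17, adjusted p = 0.055, 4 h replicate 1, 1.06, adjusted p = 0.142, 4 h replicate 2, 0.99, adjusted p = 0.158).

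Genes that appeared late were taken from the 1 µg/ml libraries in the same way, as called higher than in untreated cells at 24 h with a log2 fold change of at least 1 and not early stimulated, 474 genes (3.99%). In 10 µg/ml LTA 275 of the 474 (58%) rose from 4 to 24 h, 42 fell and 157 were not called, with a median of 0.84. In untreated cells 348 of the 474 fell and 10 rose, with a median of -1.34, and the untreated 24 h libraries took part in the choice. Of the 275 that rose, 173 fell in untreated cells and 255 had a higher change than in untreated cells, beside 23.1% and 19.7% of all genes. Both the rise in LTA and the untreated 24 h libraries entered the choice of these 275 genes. These counts were therefore largely set by the choice. In 1 µg/ml LTA 192 of the 275 were higher at 24 h than at 4 h and 2 lower, beside 25.5% and 23.3% of all genes. The 1 µg/ml libraries took part in the choice. Chosen in the 10 µg/ml libraries themselves, 417 late genes rose, and at log2 2 the number was 116.

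The late genes named included surface receptors. CX3CR1, the fractalkine receptor (chromosome 3, 39263494 to 39292966, GRCh38), stood at 24.98 and 27.1 CPM at 24 h, against 0.881 and 0.934 CPM at 4 h, and all untreated libraries were at or under 2.02 CPM. The inhibitory receptor LILRB1 had 29.9 and 30.4 CPM at 24 h, against 0.392 and 1.77 CPM at 4 h, and CSF1R, the receptor for macrophage colony-stimulating factor, had 116 and 137 CPM at 24 h, against 10.6 and 9.43 CPM at 4 h. Rises were 4.83 ± 0.42 for CX3CR1, 4.77 ± 0.44 for LILRB1 and 3.66 ± 0.23 for CSF1R. In untreated cells all 3 fell, CSF1R to 23.3 and 22.6 CPM at 24 h against 71.3 and 42.5 CPM at 4 h. The gelatinase MMP9, a neutrophil granule protease, had 2247 and 2518 CPM at 24 h, against 176 and 296 CPM at 4 h, a rise of 3.33 ± 0.31, while untreated cells had 81.4 and 50.99 CPM at 24 h and 113 and 159 CPM at 4 h. LILRB1 and LILRA1 belong to a family of similar genes and are uncertain where reads could be shared.

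S100B, a calcium-binding protein, had 278 and 172 CPM at 24 h, against 2.94 and 3.46 CPM at 4 h, a rise of 6.13 ± 0.28. TGFBI, a secreted matrix protein, had 117 and 101 CPM at 24 h, against 3.43 and 5.42 CPM at 4 h, and the galactose lectin CLEC10A had 19.9 and 12.8 CPM at 24 h, against 0.392 and 1.21 CPM at 4 h. In each of the 3 the libraries at 24 h were above those at 4 h without overlap. Untreated cells at 4 h had 31.3 and 27.6 CPM of TGFBI, above its level in LTA at 4 h. The mucus protein FCGBP had 22.4 and 10.9 CPM at 24 h, against 0 and 0.374 CPM at 4 h, the 4 h libraries holding few counts, and also rose in untreated cells, by 1.92 ± 0.57 (adjusted p = 0.0159). LILRA1, which was not in the late class, rose by 3.91 ± 0.19. At 4 h LILRA1 had 2.06 and 2.80 CPM in LTA, under the 23.5 and 22.1 CPM of untreated cells. The inhibitory Fc receptor FCGR2B, uncertain because of its near-identical copy FCGR2C, rose by 6.03 ± 0.67. HSPA7, a near-identical copy of a heat shock gene and likewise uncertain, rose by 5.07 ± 0.64 in LTA and by 2.25 ± 0.60 in untreated cells (adjusted p = 0.00926 in untreated cells). The metallothionein MT1F rose by 2.67 ± 0.28, the adhesion protein FLRT2 by 1.58 ± 0.30 and the myeloid membrane protein MCEMP1 by 0.90 ± 0.20. In 1 µg/ml LTA, however, MCEMP1 fell by 1.03 ± 0.20 (adjusted p = 0.000897), and MT1F and FLRT2 were not called. In 10 µg/ml LTA the adjusted p of the genes of this paragraph and of CX3CR1, LILRB1, CSF1R and MMP9 was at most 0.00193.

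**Figure D3:**
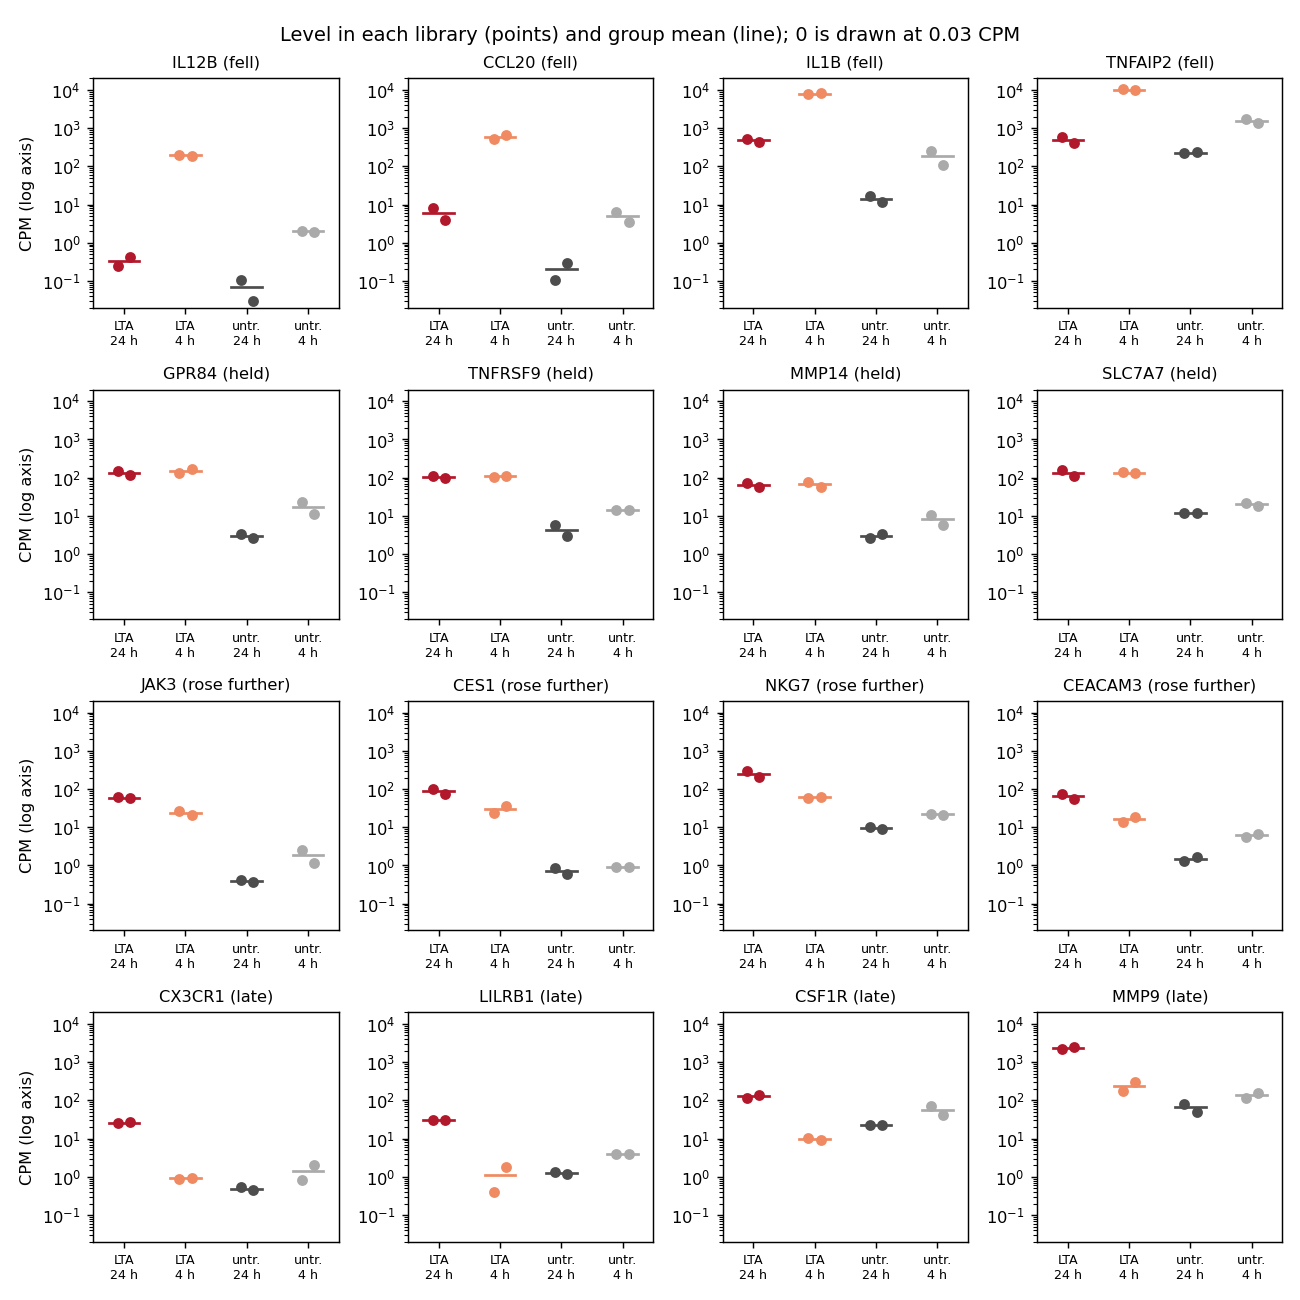
CPM on a log axis in each library (points) and group mean (line) for 16 genes, with 10 µg/ml LTA at 24 h and 4 h to the left of untreated cells at 24 h and 4 h. The top row shows early genes that fell, the second row early genes that held, the third row early genes that rose further and the bottom row late genes, where the LTA libraries at 24 h stand above all others.

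Receptors for chemoattractants changed differently in LTA and in untreated cells. Of 16 tested, 6 were higher and 3 lower at 24 h in LTA, with a median of -0.0022, whereas 0 were higher and 15 lower in untreated cells, with a median of -2.01. The difference was called upward in 11 and downward in 0, against 19.7% and 14% of all genes. The formyl peptide receptor FPR1 stood at 486 and 399 CPM at 24 h, against 139 and 159.5 CPM at 4 h, a rise of 1.57 ± 0.18 (adjusted p = 1.31e-05), and untreated cells had 32.1 and 29.9 CPM at 24 h and 146 and 97.7 CPM at 4 h. The chemokine receptors CCR2 and CXCR2 rose by 2.04 ± 0.39 and 1.40 ± 0.23 (adjusted p = 0.000813 and 0.000269). At 4 h CCR2 had 2.15 and 2.43 CPM in LTA, against 16.6 and 21.8 CPM in untreated cells. CXCR2 had 5.78 and 5.98 CPM in LTA at 4 h, against 41.2 and 28.0 CPM in untreated cells. At 24 h CXCR2 had 13.5 and 17.6 CPM in LTA, against 20.5 and 22.7 CPM in untreated cells. The chemerin-binding receptor CCRL2 fell by 3.01 ± 0.21, the complement receptor C3AR1 fell by 1.95 ± 0.16 and the platelet-activating factor receptor PTAFR fell by 1.21 ± 0.17 (adjusted p of at most 5.94e-05). Untreated cells fell by 2.72 ± 0.33, 3.17 ± 0.18 and 1.76 ± 0.17 in that order. The fall of C3AR1 was smaller in LTA by 1.21 ± 0.23 (adjusted p = 0.0013). For CCRL2 and PTAFR the difference was not called (adjusted p = 0.626 and 0.0873).

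Of 30 interferon-stimulated genes tested 8 were higher and 8 lower at 24 h, with a median of 0.21, shares close to the 24% higher and 22.7% lower of all genes. In untreated cells 0 were higher and 20 lower, with a median of -1.11, and the change in LTA was the higher one in 18 and the lower one in 1. The antiviral genes among those that rose had low levels. IFIT1, which binds viral RNA, had 2.54 and 1.60 CPM at 24 h, against 0.196 and 0.187 CPM at 4 h, OAS1, which makes the activator of RNase L, had 5.84 and 5.23 CPM at 24 h, against 0.686 and 1.21 CPM at 4 h, and the GTPase MX1 had 3.64 and 2.23 CPM at 24 h, against 0.686 and 0.934 CPM at 4 h. Rises were 3.358 ± 0.62, 2.52 ± 0.39 and 1.83 ± 0.44 in that order (adjusted p of at most 0.00405), from groups that did not overlap. The guanylate-binding proteins GBP1 and GBP2 fell by 3.51 ± 0.49 and 3.04 ± 0.20, and the signalling inhibitor SOCS1 fell by 2.89 ± 0.40 (adjusted p of at most 9.84e-05). GBP2 had 26.3 and 33.3 CPM at 24 h, against 255 and 236 CPM at 4 h. Untreated cells had 0.958 and 0.955 CPM of it at 24 h and 18.0 and 14.3 CPM at 4 h, a fall of 4.06 ± 0.29. The fall of GBP2 in LTA was thus the smaller one by 1.02 ± 0.36 (adjusted p of the difference 0.0438). For GBP1, at 0.204 and 0.0840 CPM in untreated cells at 4 h and 0 at 24 h, the difference was not called (adjusted p = 0.533).

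Promoters of MIR155HG and GBP1 are shown because both genes fell and both hold an interferon element (TTTC, any 2 bases, then TTTC), a form of the sequence bound by interferon regulatory factors. They come from RefSeq (GRCh38.p14), MIR155HG from chr21:25561895-25562194 on the plus strand and GBP1 from chr1:89065159-89065458 on the minus strand, with the element in capitals.
MIR155HG: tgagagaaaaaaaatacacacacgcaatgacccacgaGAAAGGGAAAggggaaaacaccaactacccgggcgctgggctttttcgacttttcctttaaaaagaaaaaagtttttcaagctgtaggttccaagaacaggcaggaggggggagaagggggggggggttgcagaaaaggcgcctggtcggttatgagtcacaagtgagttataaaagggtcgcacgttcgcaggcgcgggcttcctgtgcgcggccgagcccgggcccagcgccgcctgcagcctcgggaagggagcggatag
GBP1: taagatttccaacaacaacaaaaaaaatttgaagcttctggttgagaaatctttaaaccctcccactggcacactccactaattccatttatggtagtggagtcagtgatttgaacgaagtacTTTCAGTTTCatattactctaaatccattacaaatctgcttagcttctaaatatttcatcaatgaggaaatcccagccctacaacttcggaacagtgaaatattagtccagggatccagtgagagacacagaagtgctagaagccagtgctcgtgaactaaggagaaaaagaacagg
The match begins 213 bases before the start in MIR155HG, on the reverse strand, and 127 bases before it in GBP1, and neither overlaps another motif searched. The element was found on either strand in 16 of 23 promoters (69.6%) of the interferon list, in 32 of 668 (4.79%) of early genes that fell, in 7 of 65 (10.8%) of those that held, in 2 of 26 (7.69%) of those that rose further, in 7 of 205 (3.41%) of late genes that rose, in 289 of 9465 (3.05%) of all genes tested and in 996 of 27305 (3.65%) of all promoters in the table. Both directions of change occurred among genes with the element, since IFIT1 and MX1 hold it as well.

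Of 13 inflammasome genes tested, 5 were higher and 6 lower, beside 24% and 22.7% of all genes, with a median of -0.45. In untreated cells 0 were higher and 9 lower, with a median of -0.72. NLRC4, which oligomerises on bacterial flagellin and secretion system proteins, had 60.9 and 53.1 CPM at 24 h, against 19.1 and 15.6 CPM at 4 h, a rise of 1.72 ± 0.17, and untreated cells fell by 1.03 ± 0.17. The adaptor PYCARD, whose exons overlap those of an antisense gene by 59.7%, rose by 1.60 ± 0.19 (adjusted p of the 2 rises at most 2.06e-05). NAIP, the NLRC4 partner that binds the bacterial protein, rose by 1.01 ± 0.27 (adjusted p = 0.00693), a call lost without 4 h replicate 2 (0.66, adjusted p = 0.0986). The sensor NLRP3 had 14.9 and 11.99 CPM at 24 h, against 142 and 114 CPM at 4 h, a fall of 3.25 ± 0.22, and the cytokine IL18 fell by 1.71 ± 0.19 (adjusted p of at most 1.11e-05).

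Glycolysis and hypoxia response genes were higher at 24 h in 22 of 29 cases and lower in 2, with a median of 0.98. In untreated cells 12 were higher and 7 lower, beside 17.8% and 23.1% of all genes, with a median of 0.0056. The change in LTA was the higher one in 17 and the lower one in 2, beside 19.7% and 14% of all genes. PFKFB4, which sets the level of an allosteric activator of glycolysis, stood at 46.1 and 55 CPM at 24 h, against 1.66 and 2.71 CPM at 4 h, a rise of 4.52 ± 0.29. The enolase ENO2 had 20.3 and 40.4 CPM at 24 h, against 2.55 and 4.02 CPM at 4 h, and the aldolase ALDOC had 79.6 and 97.9 CPM at 24 h, against 11.3 and 4.58 CPM at 4 h, rises of 3.21 ± 0.42 and 3.49 ± 0.45 (adjusted p of the 3 at most 4.16e-05). PGK1, a glycolytic enzyme also used as a reference gene, rose by 1.35 ± 0.15 (adjusted p = 1.14e-05). The members that fell were the oxygen-responsive factor HIF1A, with 35.6 and 49.8 CPM at 24 h, against 209 and 155 CPM at 4 h, and PFKFB3, a relative of PFKFB4, with 67.7 and 72.99 CPM at 24 h, against 209 and 279 CPM at 4 h (falls of 2.09 ± 0.21 and 1.80 ± 0.16, adjusted p of at most 4.41e-06).

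Sterol and fatty acid synthesis genes were higher in 18 of 29 cases and lower in 2, with a median of 0.84. In untreated cells 4 were higher and 3 lower, with a median of 0.094. The shares over all genes were 24% higher and 22.7% lower in LTA, and 17.8% and 23.1% in untreated cells. The fatty acid desaturases led the list. FADS2 stood at 162 and 178 CPM at 24 h, against 22.04 and 39.5 CPM at 4 h, FADS1 at 167 and 212 CPM at 24 h, against 28.5 and 50.1 CPM at 4 h and SCD at 701 and 836 CPM at 24 h, against 194 and 261 CPM at 4 h, with no overlap between groups. Rises were 2.46 ± 0.29, 2.27 ± 0.35 and 1.76 ± 0.25 in that order, while in untreated cells FADS2 and FADS1 fell by 1.24 ± 0.30 and 0.93 ± 0.35. The members that fell were the sterol carrier STARD4 and INSIG1, which retains the sterol-sensing complex in the endoplasmic reticulum, by 1.99 ± 0.26 and 1.46 ± 0.25 (adjusted p of the 5 at most 0.000331). At 439 and 592 CPM at 24 h, INSIG1 still exceeded the 192 and 171 CPM of untreated cells. Among 8 tested sterol efflux and LXR target genes 3 were higher and 1 lower in LTA, and 1 was higher and 2 lower in untreated cells. The member that fell in LTA was the cholesterol exporter ABCA1, by 2.67 ± 0.33 (adjusted p = 2.5e-05). The receptor gene NR1H3 rose by 1.39 ± 0.34 (adjusted p = 0.00401). LPCAT3, whose exons overlap a gene on the opposite strand by 65.6%, rose by 1.05 ± 0.15 (adjusted p = 0.0001).

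The promoter of ALDOC is shown because ALDOC is the only named gene that holds the sterol element TCACNCCAC (N is any base), a sequence bound by SREBP factors. It comes from RefSeq (GRCh38.p14), chr17:28576846-28577145 on the minus strand, with the element in capitals.
ALDOC: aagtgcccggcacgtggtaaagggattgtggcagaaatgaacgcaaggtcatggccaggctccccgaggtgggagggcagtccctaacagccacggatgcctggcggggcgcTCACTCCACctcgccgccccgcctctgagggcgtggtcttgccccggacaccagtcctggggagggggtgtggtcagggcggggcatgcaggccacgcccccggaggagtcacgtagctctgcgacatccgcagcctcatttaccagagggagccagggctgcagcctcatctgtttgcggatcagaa
The match begins 138 bases before the start. The element was found on either strand in 1 of 23 promoters (4.35%) of the sterol list, in 100 of 9465 (1.06%) of all genes tested and in 313 of 27305 (1.15%) of all promoters in the table. FADS2, FADS1, SCD, STARD4 and INSIG1 do not hold these letters in the window searched.

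Mature neutrophil genes were higher in 14 of 29 cases and lower in 7, beside 24% and 22.7% of all genes, with a median of 0.74. In untreated cells 1 was higher and 22 lower, with a median of -1.17. The change in LTA was the higher one in 18 and the lower one in 2, beside 19.7% and 14% of all genes. The integrin subunit ITGAM stood at 229.9 and 256 CPM at 24 h, against 96.6 and 105 CPM at 4 h, a rise of 1.27 ± 0.12 (adjusted p = 3.25e-06), and untreated cells fell by 0.93 ± 0.12. The immunoglobulin A receptor FCAR fell by 1.55 ± 0.13 and the amplifying receptor TREM1 fell by 1.75 ± 0.16 (adjusted p = 1.02e-06 and 1.78e-06), though TREM1 at 16.3 and 17.9 CPM remained above the 1.06 and 1.18 CPM of untreated cells at 24 h. CR1, the receptor for complement fragments, rose by 1.81 ± 0.41 (adjusted p = 0.00268) with uneven 24 h libraries of 16.1 and 47.4 CPM, and was not called without 24 h replicate 2 (0.82, adjusted p = 0.0574).

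Primary granule and promyelocyte genes went the other way, with 11 of 22 lower and 2 higher. Their median was -0.62, and 22.7% of all genes were lower and 24% higher. In untreated cells 7 were higher and 1 lower, with a median of 0.52. The change in LTA was the lower one in 10 and the higher one in 0, beside 14% and 19.7% of all genes. Myeloperoxidase (MPO) stood at 4234 and 5239 CPM at 24 h, against 7429 and 6042 CPM at 4 h, a change of -0.51 ± 0.22 that was not called (adjusted p = 0.0705), although it was called with DESeq2 (-0.55, adjusted p = 0.0175), with no filter on low counts (-0.49, adjusted p = 0.00711) and with only the groups compared in the fit (-0.51, adjusted p = 0.0139). In untreated cells MPO rose to 13738 and 18122 CPM at 24 h, against 9510.1 and 7117 CPM at 4 h. The granule proteoglycan SRGN fell by 1.19 ± 0.23 in LTA and rose by 1.04 ± 0.23 in untreated cells. The antibacterial protein BPI fell by 1.52 ± 0.28 in LTA (adjusted p of both falls at most 0.000872). PRG2, the eosinophil granule major basic protein, rose by 4.48 ± 0.52 in LTA and by 3.94 ± 0.44 in untreated cells (adjusted p = 1.49e-05 and 1.83e-05). The mast cell protease CPA3 had 40 counts at 24 h and 1 at 4 h, a ratio of 32.0 (95% counting interval 5.42 to 1295).

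Of 7 tested phagocyte NADPH oxidase genes 4 were lower and 1 higher, with a median of -0.50. All 7 were lower in untreated cells, with a median of -1.19. The shares over all genes were 22.7% lower and 24% higher in LTA, and 23.1% and 17.8% in untreated cells. The catalytic subunit CYBB had 958 and 1040 CPM at 24 h, against 1880.5 and 1445 CPM at 4 h, a fall of 0.74 ± 0.16, and the GTPase RAC1 fell by 0.56 ± 0.13 (adjusted p = 0.00171 and 0.00289). NCF1, uncertain because of near-identical pseudogenes, fell by 0.93 ± 0.30 (adjusted p = 0.0199), a call lost without 24 h replicate 2 (-0.67, adjusted p = 0.147) or 4 h replicate 1 (-0.93, adjusted p = 0.071). The single rise, NCF4 at 0.44 ± 0.16 (adjusted p = 0.0393), was not called with the scaling factors of DESeq2 in edgeR (0.40, adjusted p = 0.0621). It was also lost without 24 h replicate 1 (0.24, adjusted p = 0.352) and without 4 h replicate 1 (0.44, adjusted p = 0.134) or 2 (0.39, adjusted p = 0.171). Of 16 tested matrix proteases and plasminogen genes 2 were higher, MMP9 and the inhibitor TIMP2 (0.97 ± 0.15, adjusted p = 0.000161), and 9 were lower, while in untreated cells 0 were higher and 11 lower. The plasminogen activator PLAT had 0.254 and 0.0697 CPM at 24 h, against 4.51 and 2.52 CPM at 4 h, a fall of 4.42 ± 0.75 (adjusted p = 0.000321).

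Growth genes were modestly higher. Ribosome biogenesis genes were higher in 17 of 28 cases and lower in 0, with a median of 0.39. In untreated cells 24 were higher and 0 lower, with a median of 0.75. The change in LTA was the lower one in 10 and the higher one in 0, beside 14% and 19.7% of all genes. BOP1, RRP9 and WDR12, which act in ribosomal RNA maturation, rose by 0.90 ± 0.15, 0.89 ± 0.18 and 0.76 ± 0.15 (adjusted p of at most 0.0013). The growth regulator MYC had 751 and 847 CPM at 24 h, against 305 and 356 CPM at 4 h, a rise of 1.27 ± 0.17 (adjusted p = 4.82e-05), but at 24 h was below the 1862 and 2372 CPM of untreated cells. Respiratory chain subunits were higher in 12 of 30 cases and lower in 1, with a median of 0.34. In untreated cells 16 were higher and 1 lower, with a median of 0.39. For both lists the shares over all genes were 24% higher and 22.7% lower in LTA, and 17.8% and 23.1% in untreated cells.

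Cell cycle and DNA replication genes were higher in 11 of 35 cases, lower in 1 and not called in 23, with a median of 0.21. Of all genes 24% were higher and 22.7% lower. Untreated cells had 4 higher and 12 lower, with a median of -0.16. CDC20, an activator of the anaphase-promoting complex, had 128 and 103 CPM at 24 h, against 49.8 and 59.5 CPM at 4 h, a rise of 1.08 ± 0.15, and the mitotic survival protein BIRC5 rose by 0.73 ± 0.13 (adjusted p = 7.48e-05 and 0.000581). Of 12 cyclin D and CDK inhibitor genes 7 were lower and 1 higher, with a median of -0.98, and in untreated cells 7 were lower and 3 higher, with a median of -1.03. Cyclin D1 (CCND1) had 13.2 and 17.4 CPM at 24 h, against 112 and 109 CPM at 4 h, a fall of 2.85 ± 0.15, while untreated cells had 28.8 and 32.5 CPM at 24 h and 17.3 and 16.97 CPM at 4 h. The inhibitors CDKN2B and CDKN1C fell by 2.52 ± 0.16 and 2.27 ± 0.25 (adjusted p of the 3 falls at most 1.01e-05). The inhibitor CDKN2D rose by 0.75 ± 0.20 (adjusted p = 0.00845), a call lost without replicate 1 at 24 h (0.62, adjusted p = 0.0686) or at 4 h (0.38, adjusted p = 0.136).

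Both stress response lists held more genes called lower than higher, beside 22.7% lower and 24% higher of all genes. Of 27 genes of the unfolded protein and integrated stress responses 15 were lower and 2 higher, with a median of -0.37, against 9 lower and 6 higher in untreated cells, with a median of -0.017. The transcription factor XBP1 had 258 and 267 CPM at 24 h, against 886 and 881 CPM at 4 h, the cystine transporter SLC7A11 had 78.3 and 84.8 CPM at 24 h, against 331 and 310.3 CPM at 4 h and the stress factor DDIT3 had 27.2 and 23.1 CPM at 24 h, against 76.4 and 80.98 CPM at 4 h. Falls were 1.75 ± 0.15, 1.98 ± 0.27 and 1.65 ± 0.16 (adjusted p of at most 6.14e-05), from groups that did not overlap. The chaperone CALR and the lipoprotein receptor VLDLR rose by 0.83 ± 0.18 and 1.43 ± 0.17 (adjusted p = 0.00168 and 1.69e-05). Of 21 antioxidant, metallothionein and iron storage genes 7 were lower, 4 higher and 10 not called, with a median of -0.24. In untreated cells 12 were lower and 4 higher, with a median of -0.87. The mitochondrial superoxide dismutase SOD2 had 421 and 459.7 CPM at 24 h, against 3607 and 3181 CPM at 4 h, a fall of 2.95 ± 0.23, and the haem oxygenase HMOX1 fell by 2.18 ± 0.29 and the autophagy receptor SQSTM1 fell by 1.997 ± 0.16 (adjusted p of the 3 at most 5.28e-05). The plot of gene lists gives the share of members called and the median of every list.

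**Figure D4:**
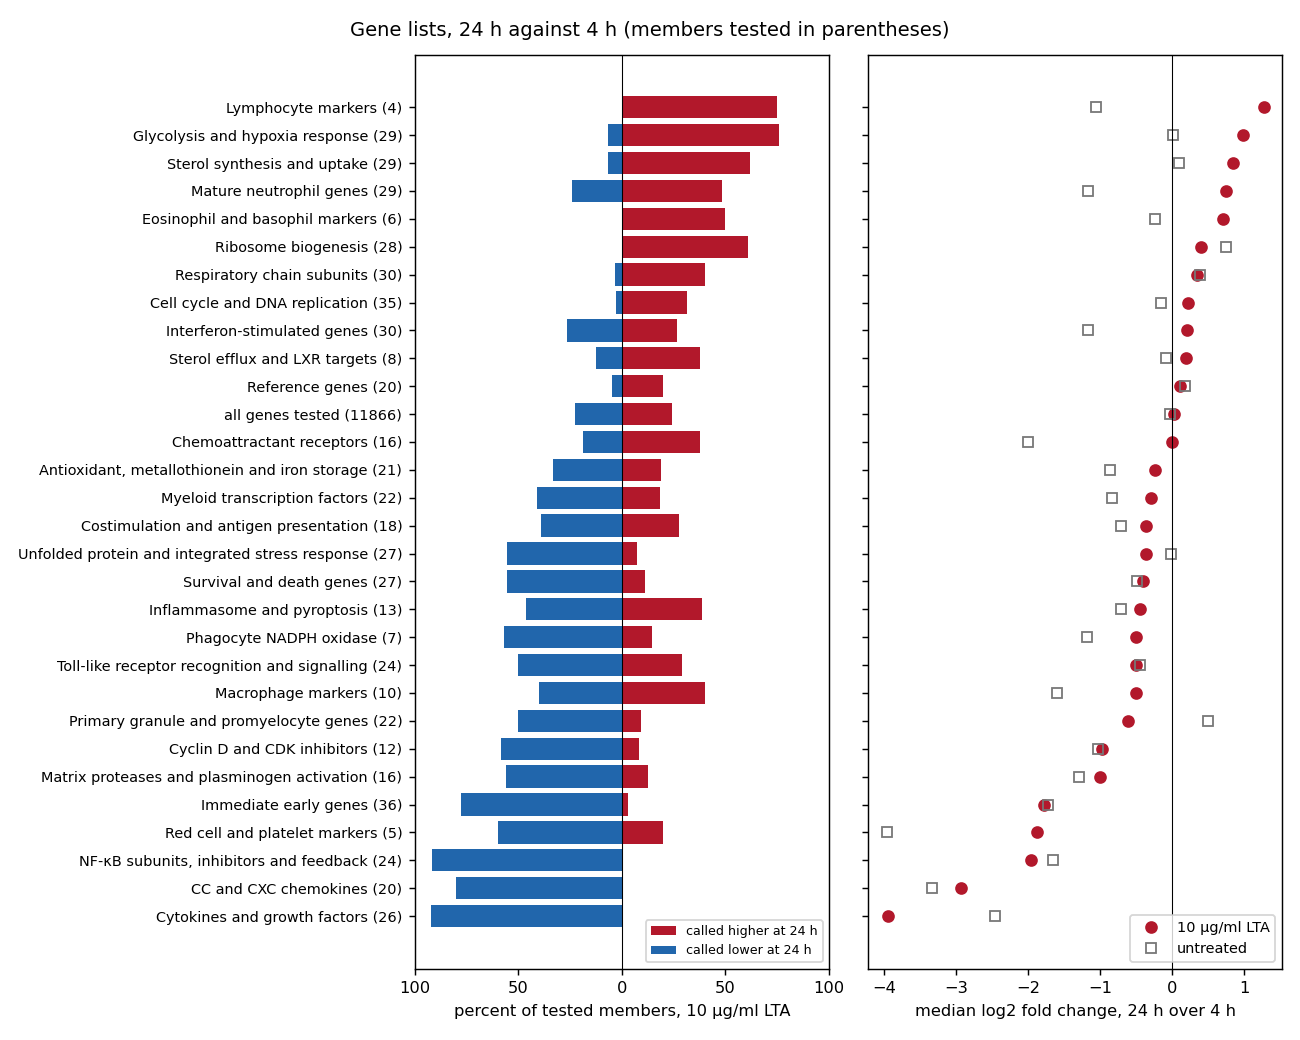
For each gene list, with the number of members tested in parentheses, the left panel gives the percent called higher (red) and lower (blue) at 24 h than at 4 h in 10 µg/ml LTA, and the right panel the median log2 fold change as fitted in 10 µg/ml LTA (circles) and in untreated cells (squares). Cytokines lie lowest in LTA at -3.95 as fitted, all genes tested lie at 0.026, and glycolysis genes at 0.98.

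Markers of other cell types moved as well, and their part in the results was not tested. Lymphocyte markers, 14 genes, summed to 1444 and 1206 CPM at 24 h, against 674 and 606 CPM at 4 h, mostly CD4, which monocytes and HL-60 cells also express, and NKG7. CD3D, CD3G, CD8A and KLRD1 were at 0 in all 4 libraries. CD4 rose by 0.89 ± 0.15 (adjusted p = 0.00024), with 1149 and 993 CPM at 24 h, against 612 and 542 CPM at 4 h. Eosinophil and basophil markers, 11 genes, summed to 18.1 and 26.1 CPM at 24 h, against 8.32 and 12.8 CPM at 4 h. Red cell and platelet markers, 13 genes, summed to 8.89 and 9.69 CPM at 24 h, against 32.7 and 36.8 CPM at 4 h, with HBG2 and GP9 at 0. The 4 h sum was mainly the globin HBB, which fell by 4.77 ± 0.29 (adjusted p = 1.04e-07). At 4 h HBB had 20.8 and 23.4 CPM in 10 µg/ml LTA and 32.0 and 34.4 CPM in untreated cells. In 1 µg/ml LTA at 4 h it had only 0.491 and 0.155 CPM, so its level at 4 h did not follow dose, and the cause was not tested. Among 10 tested macrophage markers 4 were higher and 4 lower, against 2 higher and 6 lower in untreated cells, with CSF1R, GPNMB (3.35 ± 0.37) and C1QA (2.92 ± 0.41) higher and SPP1 and CHI3L1 lower by 1.71 ± 0.22 and 1.34 ± 0.25 (adjusted p of these 4 at most 0.000711). Of 20 reference genes 4 were higher and 1 lower, with a median of 0.10, and in untreated cells 8 were higher and 1 lower, with a median of 0.17.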

How the data were processed

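RNA of dHL-60 cells was sequenced after preparation with a stranded mRNA kit, per the labels' protocols. The deposited table holds the authors' counts, whole numbers of reads per gene symbol and library, not normalized. GRCh38 is the build in the submitters' processing notes, which list, without saying what each did, featureCounts 2.0.1, Subread, HISAT2 2.1.0, fastp 0.20.0, edgeR 3.36.0 and DESeq2 1.28.0. Strand setting, annotation and filters are not given in the sources used here: overlapping, antisense and near-identical genes are therefore uncertain.

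Of 23575 symbols, 6485 had 0 counts in all 12 dHL-60 libraries and 11866 passed filterByExpr. The 12 libraries, in 6 groups of 2 by their labels, were fitted together with edgeR 4.0.16 (R 4.3.3, TMM scaling, quasi-likelihood F test, two-sided), with Benjamini-Hochberg adjustment over all genes tested in each comparison. The script was tested on simulated data. CPM used library totals (9653374 to 16530277 counts) scaled with TMM. Where a group had 0 counts in both libraries the fold is a bound, computed with 3 counts for the pair, a ratio on 1 to 3 counts has a 95% exact binomial interval, and both cover counting error only.

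The comparisons, gene lists and members were chosen with earlier results of these data known. The rule for named genes took TLR2, TLR1, TLR6, CD14, MYD88, ITGAM and MPO, the 12 called genes with the largest change each way among those of at least 10 CPM in the higher group and without overlap, 8 genes of each class of stimulated genes by their change in 1 µg/ml LTA, and up to 3 called members of each list and direction, 177 in all. LIF, the markers at or near 0 and the genes that lead a marker sum were named after their values were seen. Some of the named genes are not reported here. Of the named genes 128 had a promoter in the RefSeq table (GRCh38.p14, 27305 promoters), which was searched with Python 3.11.15. Alternatives were other scaling, no filter on low counts, DESeq2 1.42.0, other sets of libraries, a replicate block, other choices of stimulated genes and leaving out each library.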

Additional observations from a re-analysis of the deposited data

Results flagged for a closer look

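The change from 4 to 24 h differed between 10 µg/ml LTA and untreated cells in 4001 genes by a test of the difference itself (edgeR's quasi-likelihood test, Benjamini-Hochberg adjustment). Among the named genes, 37 were called in opposite directions in LTA and in untreated cells with the difference called. The size of that difference, LTA minus untreated on the log2 scale, is given for each. It was 4 or more for LILRB1 6.41, CX3CR1 6.37, MT1F 6.01, MCEMP1 5.13, CSF1R 4.97, LILRA1 4.89, CD2 4.87, CCR2 4.78, CD1D 4.50, MMP9 4.37 and CEACAM3 4.11, and between 2.5 and 4 for FADS2 3.70, FLRT2 3.65, KLF4 3.59, FPR1 3.54, JAK3 3.48, FADS1 3.20, NKG7 3.20, CDKN2D 2.97, CD14 2.77, NLRC4 2.75, TIMP2 2.60 and CCR3 2.50. It was under 2.5 for TLR6 2.32, PYCARD 2.29, ITGAM 2.20, CXCR2 2.08, SLC15A3 1.80, NQO1 1.80, TLR1 1.51, BIRC5 1.25 and NCF4 0.96. These genes rose in LTA and fell in untreated cells. The opposite held for CCND1 -3.69, SRGN -2.23 and EIF4A2 -0.94, which fell in LTA and rose in untreated cells. KRT7 (4.57) and ALOX15 (9.43) also rose in LTA and fell in untreated cells, on so few counts in some groups that the fitted values are not bounds. For ALOX15 the counts were 10 at 24 h and 0 at 4 h in LTA, at least 2.67-fold higher.

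Calls behind some of these differences did not hold in every setting. In LTA the rises of TLR1, KRT7, SLC15A3, NQO1, CDKN2D, NCF4, ALOX15, CCR3 and CD2 and the fall of EIF4A2 were lost in at least 1 setting. Without 24 h replicate 1, NQO1 stood at 0.40, adjusted p = 0.288, CCR3 at 0.69, adjusted p = 0.133, CD2 at 1.70, adjusted p = 0.0996, ALOX15 at 4.84, adjusted p = 0.0611 and EIF4A2 at -0.40, adjusted p = 0.0615.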

How the results depend on the processing

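Scaling moved the split of calls. Of called genes 51.4% were higher at 24 h with TMM, 47.7% with RLE, 56.2% with upper-quartile scaling and 47.1% with DESeq2 (2425 higher, 2727 lower), and the median of all genes was 0.026, -0.016, 0.082 and -0.017 in that order. Leaving out 1 library at a time gave 1853 to 2336 genes higher and 2077 to 2377 lower in LTA, 1274 to 1828 higher and 1864 to 2427 lower in untreated cells, and 2660 to 4051 whose change differed. It gave 813 to 909 early genes that fell, 23 to 35 that rose further, 59 to 106 that held and 214 to 258 late genes that rose. In those fits the library that remains in a group is assumed to vary like the other groups. Choosing late genes in the 10 µg/ml libraries gave 417 that rose, and stimulation of at least log2 2 gave 409, 9 and 15 early genes that fell, rose further and held, and 116 late genes that rose. The labels do not say whether equal replicate numbers pair the samples, which were fitted as unpaired. The correlation of paired deviations was -0.20 to 0.38 over 15 group pairs, above 0.1 in 5 and -0.046 for the LTA groups compared. These values cannot settle whether the samples are paired. With a replicate block 2890 genes were higher and 2742 lower, and 4170 differed from untreated cells. The uncalled changes of 6 held genes turned sign, and the cause was not tested. MMP14 stood at 0.035 with upper-quartile scaling and at -0.24 (without 24 h replicate 1) to 0.15 (without 4 h replicate 1) with 1 library left out. TNFRSF9 ranged from -0.21 (without 24 h replicate 1) to 0.022 (without 24 h replicate 2). TNFSF10 stood at 0.052 with upper-quartile scaling, 0.0093 with no filter and -0.18 (without 4 h replicate 2) to 0.13 (without 4 h replicate 1). GGT5 stood at -0.11 without 24 h replicate 2 and -0.013 without 4 h replicate 2, and PLXNA1 at -0.00070 without 4 h replicate 1 and 0.64 without 4 h replicate 2. SLC7A7 stood at -0.020 with RLE, -0.019 with DESeq2, -0.0065 with the replicate block, -0.066 without 4 h replicate 2 and -0.32 to 0.28 without 24 h replicate 1 or 2. Of 168 named genes called, 21 lost the call in at least 1 of 11 settings. Genes with few counts, such as DNAAF1 and CPA3, are limited by depth.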

Other observations

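Of 18 tested genes of costimulation and antigen presentation 5 were higher and 7 lower at 24 h in LTA, beside 24% and 22.7% of all genes, with a median of -0.36, against 0 higher and 9 lower in untreated cells, with a median of -0.71. The dendritic cell maturation marker CD83 stood at 42.9 and 32.1 CPM at 24 h, against 931 and 591 CPM at 4 h, a fall of 4.35 ± 0.38, and the costimulatory receptor CD40 had 14.3 and 13.1 CPM at 24 h, against 75.2 and 80.2 CPM at 4 h, a fall of 2.50 ± 0.17. CD40 remained above untreated cells at 24 h, which had 0.586 and 0.588 CPM. CD1D, which presents lipids, had 11.2 and 11.01 CPM at 24 h, against 1.18 and 0.747 CPM at 4 h, a rise of 3.52 ± 0.25, and untreated cells had 11.98 and 11.7 CPM at 24 h and 22.9 and 23.7 CPM at 4 h. CD1C rose by 3.46 ± 0.50 (edgeR's quasi-likelihood test, adjusted p of these 4 at most 8.96e-05). CD1A had few counts at 4 h and a ratio of 46.8 (95% counting interval 12.7 to 391).

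Survival and death genes were lower in 15 of 27 cases and higher in 3, beside 22.7% and 24% of all genes, with a median of -0.41. In untreated cells 13 were lower and 1 higher, beside 23.1% and 17.8% of all genes, with a median of -0.50. The anti-apoptotic gene BCL2A1 had 77.2 and 73.9 CPM at 24 h, against 475 and 427 CPM at 4 h, a fall of 2.58 ± 0.21, and the pro-apoptotic PMAIP1 had 5.76 and 8.57 CPM at 24 h, against 55.7 and 41.6 CPM at 4 h, a fall of 2.75 ± 0.31. The death receptor adaptor FADD and the pro-apoptotic BAK1 rose by 1.09 ± 0.18 and 0.89 ± 0.13 (adjusted p of the 4 at most 0.000216). Myeloid transcription factors were lower in 9 of 22 cases and higher in 4, beside 22.7% and 24% of all genes, with a median of -0.29. In untreated cells 11 were lower and 1 higher, with a median of -0.84. IRF8, a factor of the monocyte lineage, had 4.23 and 4.60 CPM at 24 h, against 36.7 and 28.7 CPM at 4 h, a fall of 2.88 ± 0.23 (adjusted p = 6.19e-07).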
